A study of Mus musculus with 6 samples.

Results

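The amino acid transporters are the membrane carriers and heavy chains of the solute carrier families Slc1a, Slc3a, Slc6a, Slc7a, Slc36a, Slc38a and Slc43a. The rule takes probes by the names of their genes in these 7 families and uses no measured value. The array carried 81 such probes for 63 genes, of 55681 probes for 34741 genes or gene names in all. Of the 63 genes, 2 (Slc6a19os and Slc7a6os) are named as opposite strand genes of a carrier and are kept apart, which left 61 carriers and heavy chains with 79 probes. Slc7a6os lies beside Slc7a6 and does not overlap it. A further 2 genes of these families are left out by the rule and were not used here.

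RNA was taken from 3 normal livers and 3 liver tumors of male C3H/HeN mice, aged 74 to 75 weeks by the labels, and each sample was hybridised to its own 1-color Agilent array. The mice were second-generation (F2) animals of a control group on standard diet and tap water, bred beside a study of arsenic exposure during gestation, and the tumors were chosen to carry a Ha-ras mutation. None of the sources used here says whether a tumor and a normal liver came from the same mouse, and replicate numbers were not taken to pair them. Where tissues do not come from separate mice, p-values measure only the spread between these samples. Signals are given relative to the array's 75th percentile, and the groups were compared on the log2 scale with limma, adjusted over all tested probes. A gene was tested where its probe stood well above background on every array of one group or the other, and is called at an adjusted p under 0.05.

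Cells take up amino acids through carriers that differ in substrate and in driving force. Slc1a and Slc6a carriers are mostly driven by sodium, Slc38a carriers move glutamine and other neutral amino acids, Slc36a carriers move small amino acids with protons, and Slc43a carriers let large neutral amino acids pass down their gradient. Most light chains of the Slc7a family reach the membrane only when bound to a heavy chain of the Slc3a family, and they exchange one amino acid for another. In liver, carriers supply amino acids for the urea cycle, gluconeogenesis and plasma protein synthesis. When amino acids run short, the transcription factor Atf4 binds a DNA sequence known as the amino acid response element, whose core reads TGATGNAA, and raises several carriers and enzymes of amino acid synthesis.

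The promoters of 3 carriers are shown because they hold this core and because 2 of the carriers, Slc1a4 and Slc7a7, were higher in the tumors, while Slc7a11, the cystine carrier known as a target of Atf4, was well above background on no array. Each runs from 250 bases before to 30 after the RefSeq start site in GRCm38.p6, all on the minus strand, with every match to TGATGNAA on either strand in capitals. Slc1a4 lies at chr11:20332684-20332963, Slc7a7 at chr14:54417915-54418194 and Slc7a11 at chr3:50443584-50443863.
Slc1a4: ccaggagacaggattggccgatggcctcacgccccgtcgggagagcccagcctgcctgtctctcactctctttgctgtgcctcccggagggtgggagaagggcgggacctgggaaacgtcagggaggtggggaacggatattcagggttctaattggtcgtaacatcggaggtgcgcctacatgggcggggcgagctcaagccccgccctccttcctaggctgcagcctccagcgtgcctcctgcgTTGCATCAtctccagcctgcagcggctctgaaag
Slc7a7: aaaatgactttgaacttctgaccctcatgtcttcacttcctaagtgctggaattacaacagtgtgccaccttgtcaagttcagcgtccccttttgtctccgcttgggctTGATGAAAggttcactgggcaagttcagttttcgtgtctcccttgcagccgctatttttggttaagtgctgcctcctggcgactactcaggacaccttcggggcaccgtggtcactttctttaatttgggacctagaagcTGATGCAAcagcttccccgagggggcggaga
Slc7a11: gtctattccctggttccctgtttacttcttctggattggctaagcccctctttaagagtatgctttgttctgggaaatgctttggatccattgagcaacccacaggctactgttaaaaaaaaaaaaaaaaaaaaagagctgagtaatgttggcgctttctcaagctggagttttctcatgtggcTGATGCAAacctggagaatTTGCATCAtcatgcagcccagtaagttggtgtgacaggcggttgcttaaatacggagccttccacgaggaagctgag
The match of Slc1a4 began 4 bases before the start site. Those of Slc7a7 began 141 and 1 bases before it, and those of Slc7a11 began 66 and 47 bases before it. RefSeq gives Slc7a7 5 start windows, of which the upstream one is printed. The core was present in 2 of them, where the second window holds the same site that stands next to the upstream start, and absent from the other 3. In windows of 300 bases (250 before and 50 after the start), 4 of the 43 carrier genes with a promoter entry held the core, or 9.30%, against 4.51% of all 27025 genes. The remaining gene with the core was Slc6a21, which was not tested. By outcome, the core was found in 2 of 6 genes higher in the tumors, 0 of 4 lower genes, 0 of 11 genes tested and not called, and 2 of 22 genes not tested. Slc7a9, Slc6a9, Slc38a2 and Slc36a1 are the higher genes whose windows lacked these letters. A match is a description of letters, and binding was not measured.

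Of the 61 carriers and heavy chains, 30 were tested and 31 were not, 24 of which were well above background on no array. The other 7 untested genes, among them Slc1a1, Slc1a6, Slc1a7, Slc38a5, Slc38a11 and Slc6a21, were so on some arrays only. In the tumors 7 were higher (Slc7a9, Slc7a7, Slc6a8, Slc6a9, Slc1a4, Slc38a2 and Slc36a1) and 5 were lower (Slc6a12, Slc6a16, Slc38a6, Slc3a2 and Slc38a1). These 12 of 30 stand against 34.1% of all 18546 genes tested that were called. The higher ones, 7 of 30, stand against 13.1% of all genes, and the lower ones, 5 of 30, against 21.0%. Changes of 2-fold or more were called for 6 of 30, against 14.6% of all genes, with 5 higher against 7.78% and 1 lower against 6.83%. The groups did not overlap for 16 of 30, against 51.8% of all genes. The median log2 fold change of the 30 was 0.03, also with genes dim in one group at their bound, against -0.13 over all genes tested. The share called and the share without overlap thus lay near those of all genes.

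Scaling changed the balance of directions. With the 75th percentile, 37.8% of the called probes of the whole array were higher in the tumors, and with scaling by the spike-in controls 60.9% were, while the median of all tested probes moved up by 0.17 on the log2 scale. Among the carriers, spike-in scaling gave 8 higher and 1 lower. All 12 called carriers kept their sign with it, but 6 of the calls were lost, those of Slc38a6, Slc3a2, Slc6a16, Slc38a1, Slc38a2 and Slc36a1.

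**Figure D1:**
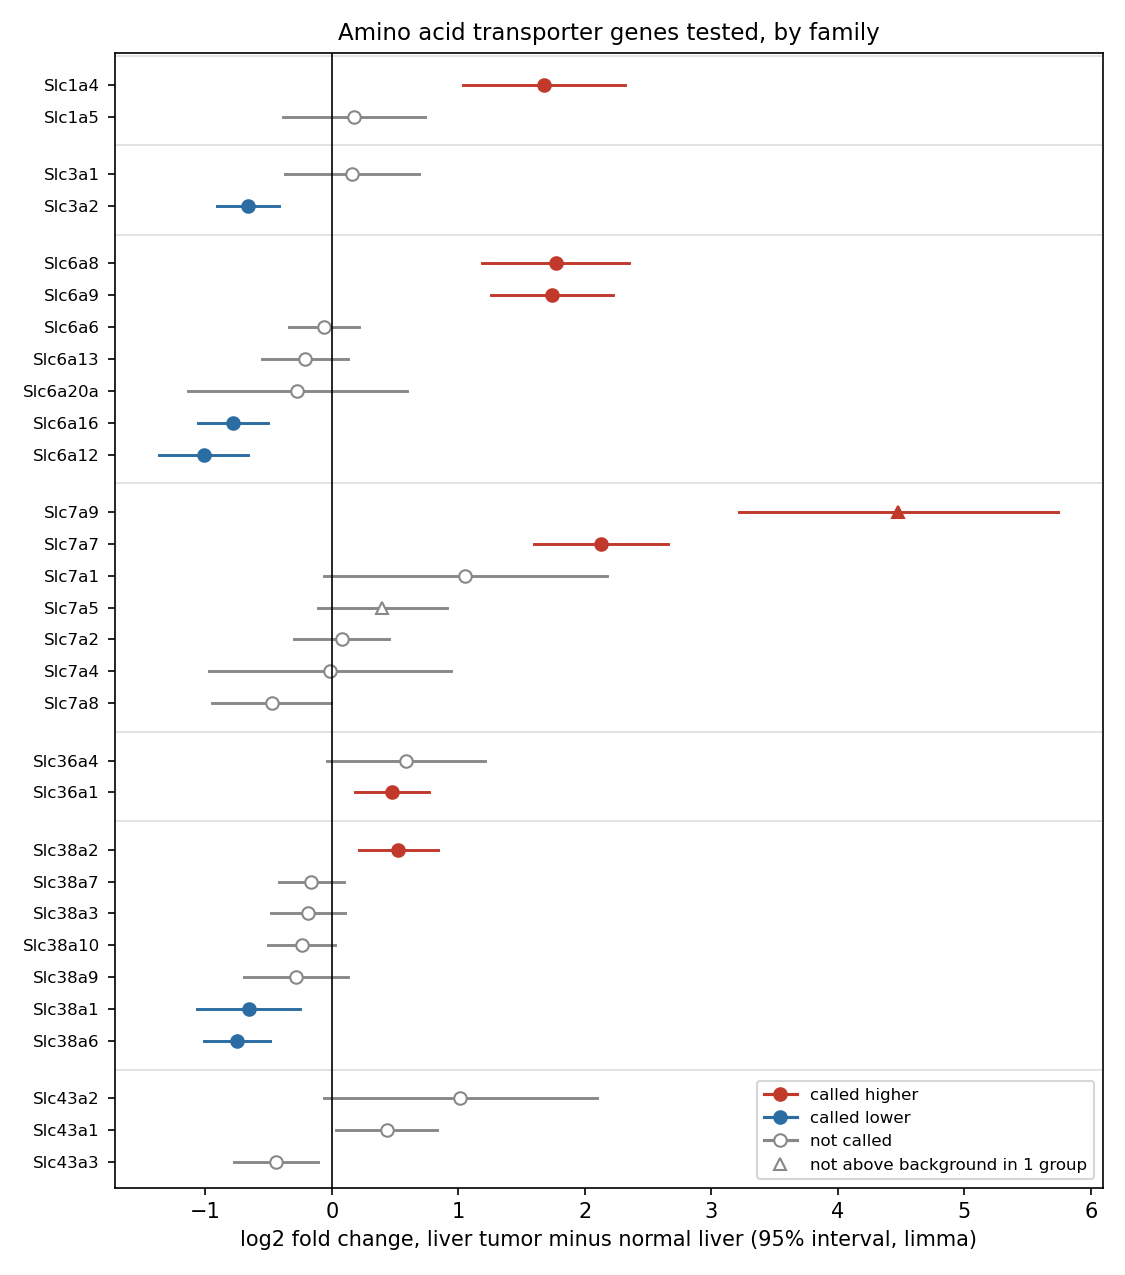
Log2 fold change (liver tumor minus normal liver) of the 30 tested carriers and heavy chains, grouped by family, with 95% intervals from limma; filled points are called, and triangles mark genes not well above background in 1 group, whose value depends on signal at background. The 7 higher genes reach 4.48 for Slc7a9 and the 5 lower ones reach -1.01 for Slc6a12.

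All normal livers were on slide 1 and all tumors on slide 2, which means that an effect of the slide and one of the tissue cannot be told apart. The 75th percentile lay at 124 to 177 on the arrays of normal livers and 171 to 183 on those of tumors, the median local background at 42 to 45 and 22 to 23. In whole tissue, fewer cells of a type and less RNA per cell cannot be told apart. Hepatocyte markers were present in both groups, with 1 of 8 higher, 2 of 8 lower and summed signals of 8849 to 9762 in normal livers and 8824 to 9267 in tumors. Of 7 macrophage markers 5 were lower and 0 higher, with summed signals of 100.2 to 172 and 51.2 to 84.4. Of 8 markers of stellate cells and fibroblasts 4 were lower and 1 (Col1a1) higher, with 86.4 to 103 and 29.1 to 48.7. Most of that sum came from Dcn, at 75.8 to 96.4 and 17.8 to 37.7. Of the 8 markers, 4 had a log2 fold change above 0. Of the markers tested, endothelial ones were lower in 1 of 6 (53.5 to 65.3 and 47.2 to 50.3), neuron and glia ones in 3 of 4 (18.7 to 19.1 and 7.53 to 10.5) and red blood cell precursor ones in 2 of 3 (94.8 to 209 and 70.9 to 124). None of the tested markers was called for cholangiocytes (5; 2.59 to 3.35 and 2.22 to 2.48), T and B lymphocytes (3; 7.42 to 9.21 and 7.44 to 9.57), neutrophils (3; 4.96 to 7.41 and 5.31 to 17.6) or platelets (2; 0.540 to 0.907 and 0.570 to 0.988). Tubb3, Gfap, Mpo, Ppbp, Gp1bb and Epb42 were well above background on no array. Many carriers are made in several of these cell types, and the part of cell composition in the results below was not tested.

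Of the 2 heavy chains 1 was lower in the tumors, and of their 4 tested light chains 2 were higher. Among all genes tested, 21.0% were lower and 13.1% higher. Slc3a2 (4F2hc or CD98; chr19:8706882-8723369 in GRCm38.p6), the heavy chain of most light chains and also a partner of integrins, read 20.9, 20.0 and 19.6 in the normal livers and 13.2, 12.1 and 12.9 in the tumors. Every tumor lay below every normal liver, a fall of 0.66 on the log2 scale (SE 0.10, limma's adjusted p = 0.00520). That call was lost with spike-in scaling (adjusted p = 0.162). Slc3a1 (rBAT; chr17:85028347-85064241), the heavy chain of cystine and dibasic amino acid uptake, read 8.06, 8.01 and 8.49 in the normal livers and 9.52, 6.63 and 12.1 in the tumors. Its tumors stood on both sides of the normal livers, with a log2 fold change of 0.16 (95% interval -0.37 to 0.69) that was not called.

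Among the light chains, Slc7a7 (y+LAT1; chr14:54369442-54420068) exchanges dibasic for neutral amino acids and is mutated in lysinuric protein intolerance. It read 3.19, 2.56 and 3.67 in the normal livers and 17.7, 13.1 and 10.8 in the tumors. The lowest tumor was well above the highest normal liver, and the log2 fold change was 2.13 (SE 0.22, limma's adjusted p = 0.00153), or 4.37-fold. Macrophages also make Slc7a7, and of 7 macrophage markers 5 were lower in the tumors and 0 higher, with summed signals of 100.2 to 172 in the normal livers and 51.2 to 84.4 in the tumors. Their part in the result was not tested. Of its 5 start windows, the one printed above carried the amino acid response core at 2 places, and 3 held none. The log2 ratio of Slc7a7 to its partner Slc3a2 within an array rose by 2.79 (SE 0.25) from normal livers to tumors. Its exact two-sided permutation p = 0.1 is the smallest that 3 against 3 arrays allow. With Slc7a7 higher and Slc3a2 lower, each without overlap, the ratio had to separate the groups, and this p adds nothing to those calls.

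Slc7a9 (b0,+AT; chr7:35448727-35466034), the light chain of Slc3a1 and a cystinuria gene best known from kidney and intestine, was well above background in no normal liver and in every tumor. It read 0.0384, 0.0321 and 0.0282 in the normal livers and 1.002, 1.28 and 0.3005 in the tumors. Against the lowest signals counted as above background on the normal arrays, the tumors held at least 5.60-fold more Slc7a9 signal. The fitted log2 fold change was 4.48 (SE 0.52, limma's adjusted p = 0.00225), and it was 1.59 with normexp, a background correction that lifts dim signals by an offset. Tumor 3 lay lowest of the tumors yet still above all normal livers, while for its heavy chain Slc3a1 tumor 3 was the highest.

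The other partners of Slc3a2 gave no call. Slc7a8 (LAT2), a carrier of neutral amino acids, read 0.220, 0.179 and 0.218 in the normal livers and 0.189, 0.143 and 0.118 in the tumors, with a log2 fold change of -0.48 (95% interval -0.95 to -0.01, adjusted p = 0.108). Its log2 ratio to Slc3a2 differed by 0.19 (SE 0.21, exact two-sided permutation p = 0.4). Slc7a5 (LAT1), the leucine carrier often raised in tumors, was well above background in no normal liver, at 0.162, 0.129 and 0.123, and in every tumor, at 0.235, 0.176 and 0.143. The lowest signal counted as above background was higher on the normal arrays (0.117 to 0.148) than on the tumor arrays (0.101 to 0.113). The groups of Slc7a5 overlapped, normal liver 1 reading above tumor 3. The log2 fold change of 0.40 (limma's adjusted p = 0.194) was -0.02 after normexp correction. A second probe of Slc7a5 was well above background on no array. Slc7a6, Slc7a10 and Slc7a11, the other light chains of Slc3a2, were well above background on no array, nor was Slc7a13.

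**Figure D2:**
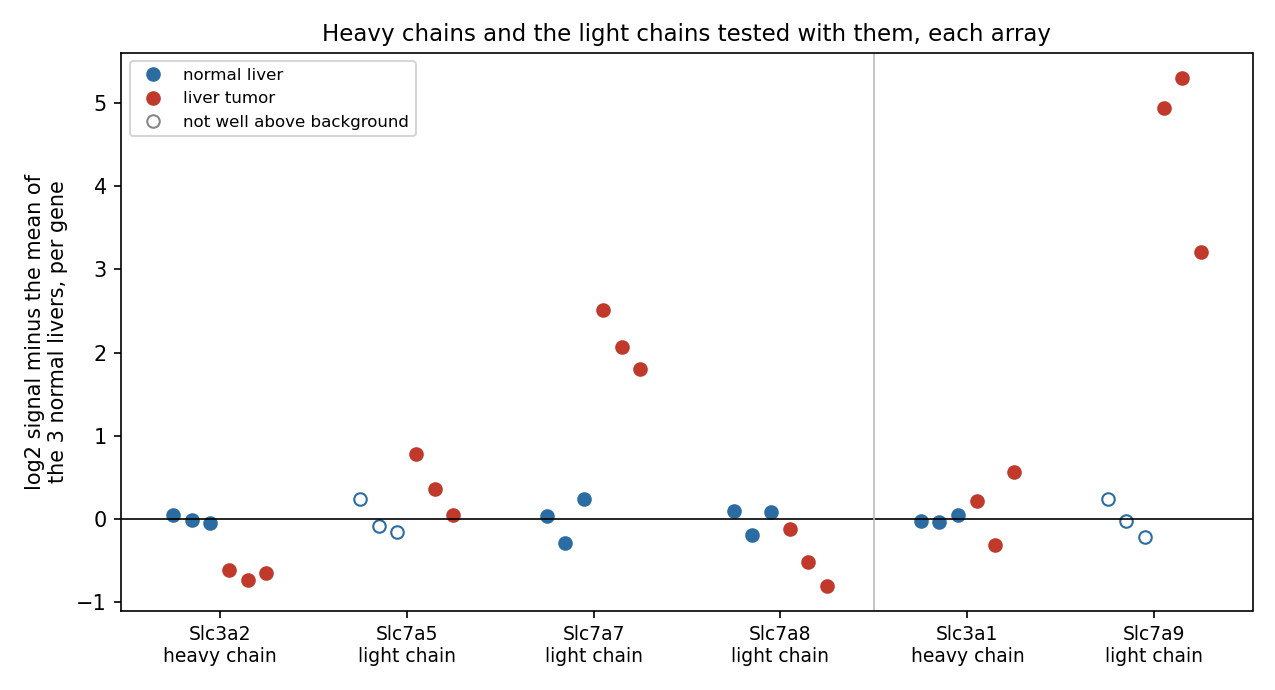
Log2 signal of the 2 heavy chains and the 4 tested light chains on each array, as the difference from the mean of the 3 normal livers for the same gene, so that heights compare groups within a gene and not genes with each other; open points are not well above background. Slc7a7 and Slc7a9 stand above their normal livers in all tumors, Slc3a2 stands below and Slc3a1 on both sides.

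The rest of the Slc7a family comprises the cationic amino acid carriers and their relatives, none of which was called. Slc7a1 (CAT1; chr5:148327410-148399904), which brings in arginine, lysine and ornithine, read 0.429, 0.422 and 0.433 in the normal livers and 1.604, 1.07 and 0.410 in the tumors. Tumors 1 and 2 were above and tumor 3 just below the normal livers, and the log2 fold change of 1.05 (95% interval -0.06 to 2.17) was not called. Slc7a2 (CAT2), the cationic carrier typical of liver, read 1.39, 1.49 and 1.49 against 1.90, 1.39 and 1.37, with a log2 fold change of 0.08. Slc7a4 read 2.21, 2.25 and 2.80 in the normal livers and 2.63, 1.27 and 4.02 in the tumors, a wide spread around a log2 fold change of -0.02. Slc7a3, Slc7a12, Slc7a14 and Slc7a15 were well above background on no array. In all, 2 of 7 tested Slc7a genes were called, beside 34.1% of all genes tested, and both were higher.

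In the Slc1a family, Slc1a4 (ASCT1; chr11:20302180-20332713), which exchanges serine, alanine, cysteine and threonine, read 17.4, 15.5 and 20.0 in the normal livers and 84.8, 43.7 and 47.7 in the tumors. All tumors were above all normal livers and tumor 1 was highest, with a log2 fold change of 1.68 (SE 0.27, limma's adjusted p = 0.00580), or 3.20-fold. It is one of the carriers whose promoter is printed above. Its relative Slc1a5 (ASCT2), known as a glutamine carrier of tumors, read 0.172, 0.101 and 0.128 in the normal livers, of which 2 of 3 were well above background, and 0.157, 0.119 and 0.173 in the tumors. Its log2 fold change of 0.18 (95% interval -0.38 to 0.74) was not called. Of the glutamate carriers, Slc1a3 was well above background on no array. Slc1a7 was so in 2 normal livers and 0 tumors, at 0.144 to 0.158 and 0.0450 to 0.102.

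The Slc6a family holds carriers of neurotransmitters, amino acids, betaine, taurine and creatine. Its 7 tested genes divided into 2 higher, 2 lower and 3 not called, beside 13.1% higher and 21.0% lower among all genes. Slc6a9 (GLYT1; chr4:117835258-117869305), a glycine carrier, read 13.5, 14.3 and 12.8 in the normal livers and 48.9, 33.6 and 56.2 in the tumors, with a log2 fold change of 1.74 (SE 0.20, limma's adjusted p = 0.00215). A second probe of Slc6a9 read 10.6, 11.1 and 10.04 against 36.6, 28.1 and 42.8 and gave the same 1.74 (SE 0.17, limma's adjusted p = 0.00123). On both probes the groups lay far apart and the tumors kept the same order. Slc6a9 is also made in red blood cell precursors. Of 5 markers of these cells 3 were tested, and 2 (Alas2 and Klf1) were lower in the tumors. The remaining 1 had a log2 fold change above 0 and was not called. The part of these cells in the result was not tested.

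Slc6a8 (chrX:73673133-73682502), the creatine carrier, read 1.76, 0.911 and 1.41 in the normal livers and 4.90, 4.18 and 4.35 in the tumors. The groups lay apart, with a log2 fold change of 1.77 (SE 0.24, limma's adjusted p = 0.00375), or 3.41-fold. Gatm, which makes the precursor of creatine from arginine and glycine, was lower in the tumors by 0.61 on the log2 scale (limma's adjusted p = 0.0179). Gamt, another gene of creatine synthesis, had a log2 fold change of 0.06 (limma's adjusted p = 0.788) and was not called. Slc6a12 (BGT1; chr6:121342574-121365773), which carries betaine and GABA, went the other way, from 35.1, 41.5 and 37.95 in the normal livers to 19.1, 16.2 and 21.7 in the tumors. It fell by 1.01 on the log2 scale (SE 0.15, limma's adjusted p = 0.00426), or 2.02-fold, with no overlap. Bhmt, which uses betaine to make methionine, was lower as well, by a log2 fold change of -1.44 (limma's adjusted p = 0.0143).

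Slc6a13 (GAT2; chr6:121300288-121337721), the neighbour of Slc6a12 on the chromosome and a carrier of GABA and taurine, read 75.1, 83.7 and 71.2 in the normal livers and 56.9, 68.3 and 74.1 in the tumors. Its groups overlapped, and the log2 fold change of -0.21 was not called and was 0.03 after quantile normalization. Slc6a6 (TauT), the taurine carrier, read 14.3, 14.7 and 14.0 against 12.9, 13.0 and 15.3, with a log2 fold change of -0.06 (95% interval -0.34 to 0.21). Slc6a16, an orphan member, read 0.625, 0.617 and 0.663 in the normal livers and 0.371, 0.406 and 0.335 in the tumors, a fall of 0.78 on the log2 scale (SE 0.12, limma's adjusted p = 0.00480). The proline carrier Slc6a20a, whose close copy Slc6a20b was well above background on no array, had a log2 fold change of -0.27 and was not called. The carriers of dopamine, noradrenaline and serotonin (Slc6a3, Slc6a2 and Slc6a4) and the neutral amino acid carrier of kidney and intestine, Slc6a19, were among 12 members of the family that were well above background on no array.

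**Figure D3:**
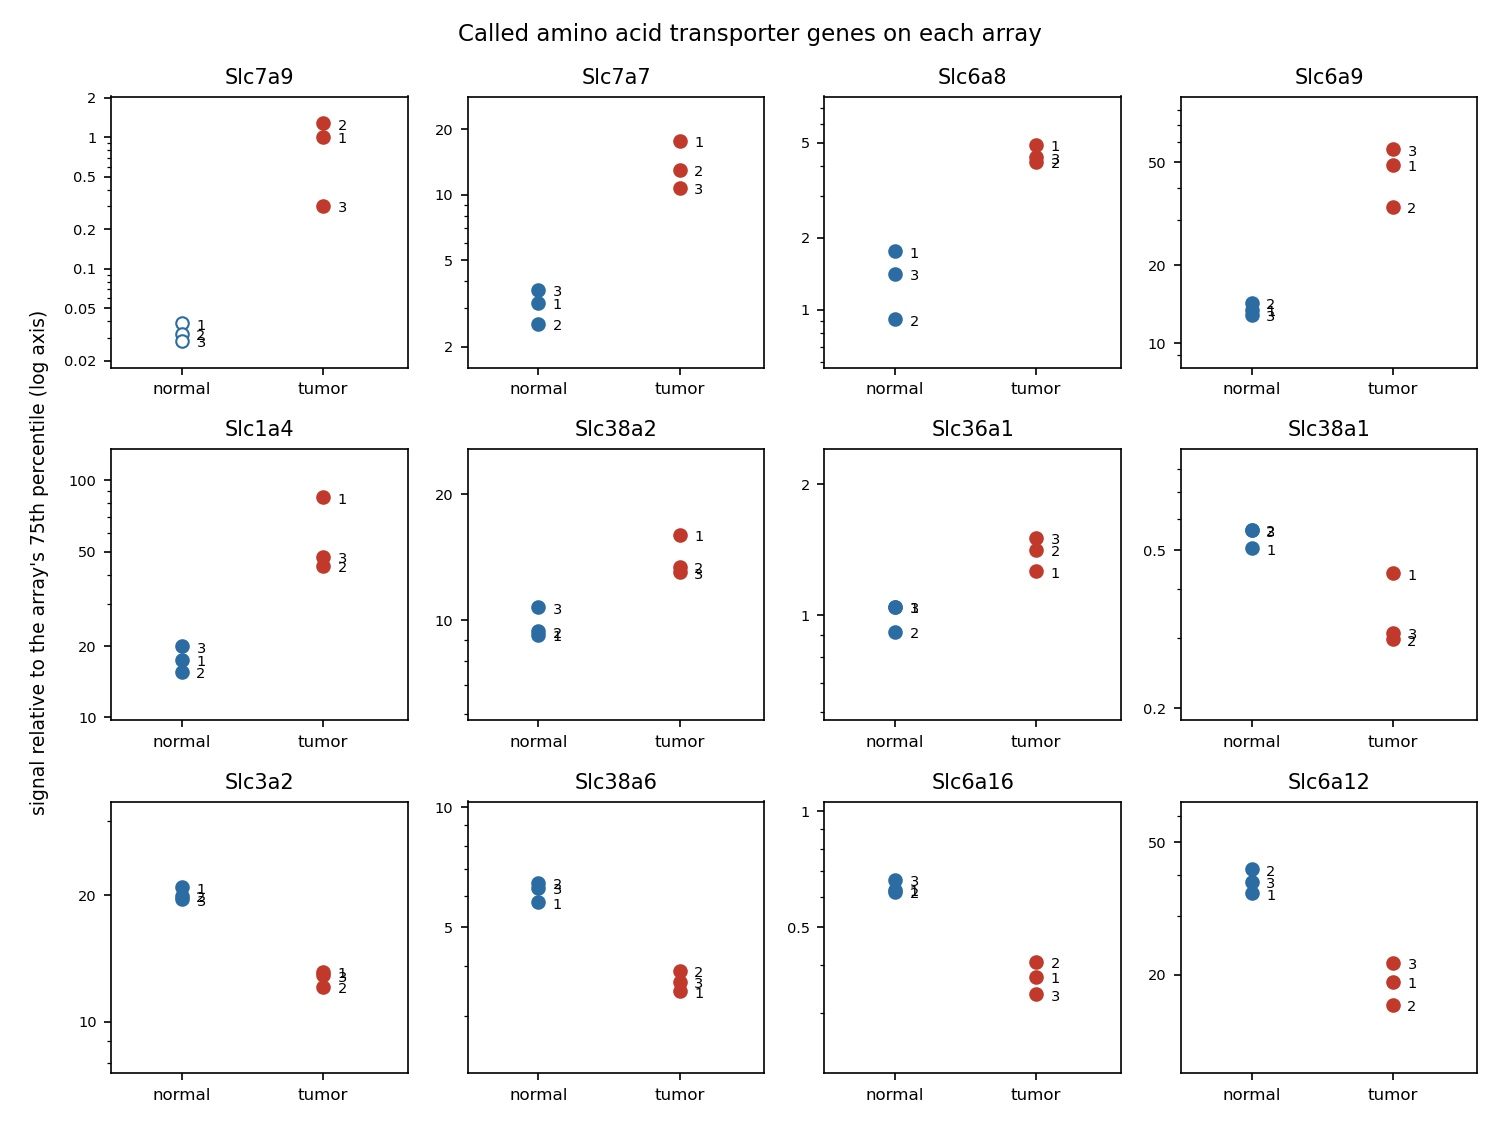
Signal relative to the array's 75th percentile (log axis, its own range in each panel) of the 12 called genes on each array, with the replicate number beside each point; open points are not well above background. In each panel the 3 normal livers and the 3 tumors do not overlap, with the widest gap for Slc7a9 and narrow gaps for Slc38a2, Slc36a1 and Slc38a1.

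The Slc38a family gave smaller changes in both directions, with 1 higher and 2 lower of 7 tested, beside 13.1% and 21.0% of all genes. Slc38a2 (SNAT2; chr15:96687392-96699728), a sodium-driven carrier of neutral amino acids that rises when amino acids run short, read 9.24, 9.41 and 10.74 in the normal livers and 16.0, 13.4 and 13.0 in the tumors, with a log2 fold change of 0.53 (SE 0.13, limma's adjusted p = 0.0247). Slc38a1 (SNAT1; chr15:96571418-96643438), its neighbour with like substrates, read 0.505, 0.561 and 0.560 against 0.437, 0.298 and 0.310, a fall of 0.66 on the log2 scale (SE 0.17, limma's adjusted p = 0.0285). Slc38a6, a member of less known function, read 5.78, 6.46 and 6.27 against 3.45, 3.88 and 3.65, a fall of 0.75 (SE 0.11, limma's adjusted p = 0.00438). On these probes the groups did not overlap, but a second probe of Slc38a6 gave a log2 fold change of -0.20 (limma's adjusted p = 0.334) with overlapping groups. Slc38a1 had 2 further probes that were not tested. In 1 of them the groups overlapped and 2 normal livers alone were above background, while the other was above background on no array. The calls of Slc38a1 and Slc38a2 were lost without any 1 of several arrays, with adjusted p of 0.0542 to 0.0875 where they were lost.

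Slc38a3 (SNAT3; chr9:107651154-107668968), a glutamine carrier of hepatocytes, read 122, 127 and 132 in the normal livers and 124, 99.1 and 112 in the tumors. One tumor lay within the range of the normal livers, and the log2 fold change of -0.19 (95% interval -0.48 to 0.10) was not called and was 0.05 after quantile normalization. Slc38a9, which reports lysosomal arginine to mTORC1, read 0.853, 0.930 and 0.687 against 0.762, 0.703 and 0.564, with a log2 fold change of -0.28. Slc38a7 and Slc38a10 had log2 fold changes of -0.16 and -0.24 and were not called either. Slc38a8 was well above background on no array.

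In the Slc36a family of proton-coupled carriers, Slc36a1 (PAT1; chr11:55204322-55236330), which exports amino acids from lysosomes, read 1.04, 0.916 and 1.05 in the normal livers and 1.26, 1.41 and 1.51 in the tumors. This was a log2 fold change of 0.47 (SE 0.12, limma's adjusted p = 0.0276) without overlap. A second probe of Slc36a1 gave 0.14 (adjusted p = 0.604), and the mean of both probes was not called (adjusted p = 0.109). Without any 1 of normal liver 1, 2 or 3 or liver tumor 2 or 3 the call of Slc36a1 was lost, with adjusted p of 0.0561 to 0.0958. Slc36a4 read 0.583, 0.331 and 0.306 against 0.672, 0.547 and 0.545, with a log2 fold change of 0.59 (95% interval -0.04 to 1.21) that was not called. Slc36a2 and Slc36a3 were well above background on no array.

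All 3 members of the Slc43a family were tested and 0 were called. The groups did not overlap in any of them, beside 51.8% of all genes tested. By limma, 2 had an unadjusted p under 0.05. Slc43a3, which is also known to carry purine bases, read 4.14, 5.12 and 5.51 in the normal livers and 3.49, 3.57 and 3.75 in the tumors, with a log2 fold change of -0.44 (limma's adjusted p = 0.0501) on the edge of the threshold. Slc43a1 (LAT3) read 2.97, 2.43 and 3.42 against 4.09, 3.44 and 4.32, with a log2 fold change of 0.43 (adjusted p = 0.0900). Slc43a2 (LAT4) read 1.08, 1.17 and 1.14 against 1.76, 1.38 and 4.91, with a log2 fold change of 1.02 (95% interval -0.06 to 2.10), and tumor 3 was the highest by far. Of the genes named as opposite strand genes, Slc7a6os was lower in the tumors by a log2 fold change of -0.53 (limma's adjusted p = 0.0340). Slc6a19os was well above background on no array.

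Other genes of amino acid supply were taken as lists and are given by their counts. Of 28 genes of the amino acid response and of serine and one-carbon synthesis, which Atf4 is known to raise, 26 were tested, 9 were higher and 4 lower, with a median log2 fold change of 0.46, also with genes at their bound, against 13.1% and 21.0% of all genes. Leaving out 1 array gave 6 to 8 higher and 2 to 3 lower, with 2 lower without normal liver 2, normal liver 3 or liver tumor 2, and spike-in scaling gave 1 lower. The serine synthesis enzymes followed one direction. Phgdh, the first enzyme, read 0.148, 0.151 and 0.188 in the normal livers, of which 2 of 3 were well above background, and 8.18, 7.72 and 3.63 in the tumors, with a log2 fold change of 5.25 (SE 0.32, limma's adjusted p = 2.32e-04). Psat1, the next enzyme, was well above background in no normal liver and rose at least 23.9-fold in the tumors, where it read 4.21, 5.32 and 1.33. Psph, the last, read 2.52, 2.32 and 2.03 against 12.3, 11.5 and 8.52, a log2 fold change of 2.22 (SE 0.17, limma's adjusted p = 5.38e-04). Tumor 3 was the lowest tumor for all of these enzymes, as it was for Slc7a9.

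Trib3, a pseudokinase induced by Atf4, was higher by 2.43 on the log2 scale (limma's adjusted p = 0.00307). Aldh18a1, which starts proline synthesis, was at least 1.79-fold higher, and Sesn2, Atf3, Nupr1 and Ddit4 were the other genes called higher. Shmt2, the mitochondrial enzyme that splits serine to glycine, went against its list with a log2 fold change of -1.03 (limma's adjusted p = 0.00747), as did Gpt2, Aars and Cebpb. Atf4 itself, at -0.07, and the asparagine synthetase Asns, at 0.89, were not called. The promoter core was present in 9 of the 25 genes of this list that had a promoter entry, or 36%. Of these, Trib3, Atf3 and Nupr1 were higher and Aars lower, while Asns, Chac1, Fgf21 and Gars were not called and Pycr1 was not tested. The genes were listed as known targets of Atf4, so this share is not a result about these data.

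Of 33 listed genes of amino acid sensing and the growth kinase complex mTORC1, 30 were tested, 1 was higher and 7 lower, with a median of -0.25, against 13.1% higher and 21.0% lower among all genes. The lower calls of this list fell to between 1 and 4 when any 1 array was left out and to 0 with spike-in scaling. Castor1, an arginine sensor, rose at least 2.20-fold and was well above background in no normal liver. Wdr59, a subunit of the GATOR2 complex, had a log2 fold change of -0.83, Deptor, an inhibitor of mTOR, -0.79, and Fnip1, a folliculin partner, -0.46. Another list held carriers of other families and partner proteins, not all of them for amino acids, and 17 of its 25 genes were tested. Of these, 3 were higher (Slc17a9, Slc66a1 and Slc25a1) and 9 lower (5 lower without normal liver 2), with a median of -0.37. Among all genes the same 13.1% and 21.0% were higher and lower. The mitochondrial carriers Slc25a21 (oxodicarboxylates) and Slc25a13 (citrin, aspartate and glutamate) had log2 fold changes of -2.55 and -1.58, the lysosomal carrier Slc17a5 -1.55 and Slc16a10 (TAT1), an aromatic amino acid carrier of the plasma membrane, -1.46.

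A list of 32 genes of amino acid use covered mainly glutamine, glutamate, branched chain amino acids and cystine or cysteine. It also held genes of arginine, ornithine, glycine, creatine and betaine use, of which Arg1, Gatm, Gnmt and Bhmt were lower. Of the 32 genes, 29 were tested, 3 were higher and 15 lower, with a median of -0.59, again beside 13.1% and 21.0% of all genes. Without normal liver 2 and with spike-in scaling 7 were lower, and without normal liver 3 there were 9. Glul, the glutamine synthetase of pericentral hepatocytes, read 45.2, 55.9 and 49.2 in the normal livers and 2.85, 15.5 and 17.8 in the tumors, with a log2 fold change of -2.44 (SE 0.68, limma's adjusted p = 0.0348). Gnmt, which consumes glycine, had a log2 fold change of -2.19, Cth, which makes cysteine, -2.02, and Ppm1k, which activates branched chain ketoacid breakdown, -2.01. Gss, which completes glutathione, and Glud1, the glutamate dehydrogenase, were higher, with 0.76 and 0.61.

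**Figure D4:**
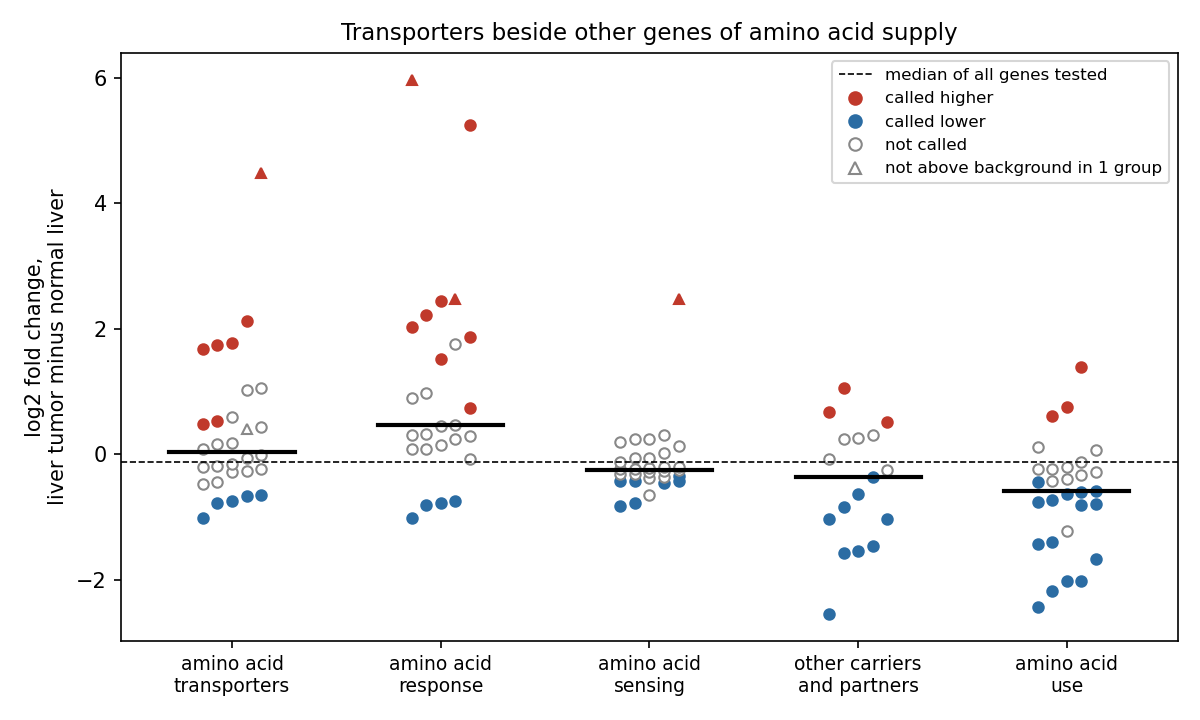
Log2 fold change (liver tumor minus normal liver) of each tested gene among the amino acid transporters and the 4 other lists, with list medians as bars and the median of all genes tested, -0.13, as a dashed line; triangles mark genes not well above background in 1 group, whose values depend on signal at background. Medians run from 0.46 for the amino acid response list to -0.59 for the amino acid use list, with the transporters at 0.03.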

How the data were processed

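For each of the 6 arrays (SurePrint G3 Mouse GE, 1 color) the authors deposited Feature Extraction output whose processed signal is an intensity after background subtraction and spatial detrending. The version is 10.7.3.1 by the file headers and 12.0.3.1 by the submitters' processing notes. They also deposited a table of the ratio of each signal to the array's 75th percentile, used here as an alternative.

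Here log2 processed signals minus log2 of that percentile, over all spots, were averaged per probe, without control and outlier spots. Probes well above background on 3 of 3 arrays in either group (24902 of 55681) were compared with limma 3.58.1 in R 4.3.3 (lmFit and eBayes, two-sided, Benjamini-Hochberg, 0.05). The fit was tested on simulated data. Of several probes for a gene, the brightest by mean log2 signal stands for it. Where a group had no array above background, the fold is a bound against the higher of the lowest signal above background and the probe's own, per array. Names, positions and promoters are from RefSeq GRCm38.p6, which named 27235 probes by accession, 3581 by symbol and 565 by synonym, while 24300 kept the design's name. Promoter entries existed for 43 of the 61 genes. Tables were made in Python 3.11.15 (numpy 2.4.6 and pandas 2.3.3) and figures with matplotlib 3.10.9.

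By rule, per-array values are given for called carriers, the brightest gene of each family and the heavy chains with their light chains, and up to 4 called genes of each other list. Further values were added after they were seen. The members and lists were chosen with earlier results of these data known. Arrays give no counts, so their number limits the precision. Alternatives were normexp (offset 50), quantile normalization, spike-in scaling, another percentile, other dim filters, the deposited table, a replicate block, a variance trend, averaging over probes, the methods' t-test and each array left out. Some genes of the families and lists are counted but not reported here by name.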

Additional observations from a re-analysis of the deposited data

Results flagged for a closer look

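The carriers that were not tested held signals in single tumors that stood well above background, while no normal liver was well above background for the same probe. Slc38a5, a glutamine and histidine carrier, read 0.604 in liver tumor 2, the 1 tumor above background. Slc38a11, a member of less known function, read 0.222 in liver tumor 1, also the 1 tumor above background, and a second probe of the gene was not above background on any array. Slc1a1, a glutamate and cysteine carrier, read 0.131 in liver tumor 2 and was above background in that tumor alone. Slc1a6, another glutamate carrier, read 0.166 in liver tumor 2 and was above background in 2 of 3 tumors. Its groups overlapped, at 0.145, 0.0966 and 0.129 in the normal livers and 0.154, 0.166 and 0.104 in the tumors. Each of these carriers rests on 1 or 2 arrays and was not tested. The lowest signal counted as above background was 0.117 to 0.148 on the normal arrays and 0.101 to 0.113 on the tumor arrays. A dim signal could thus count in a tumor and not in a normal liver.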

How the results depend on the processing

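With 3 arrays a group and 1 slide per tissue, slide effects on some probes cannot be told apart from tissue, and dim probes limit the Slc7a9 and Slc7a5 values most. All 12 called carriers kept their sign under every alternative in which they were tested. With spike-in scaling the lower carriers were 1, the lower probes 1962 (3050 higher, main 5127 and 3112) and the carriers' median log2 fold change 0.20. Without the dim filter 2071 probes were higher and 2603 lower, and the median was -0.22. The methods' t-test, unpaired and adjusted, called 4 higher carriers and 1739 higher probes, 8 carriers and 5262 probes in all (14 and 10071 unadjusted). This t-test lost Slc7a9 (adjusted p = 0.118), Slc1a4 (adjusted p = 0.0984), Slc38a1 (adjusted p = 0.0617) and Slc38a2 (adjusted p = 0.0591). Its paired form called 0 higher and 0 lower carriers and 0 higher and 0 lower probes (10 carriers and 7421 probes unadjusted). Leaving out each array gave 5 to 7 higher and 4 to 6 lower carriers, 2346 to 2804 higher and 2608 to 4367 lower probes and medians of -0.094 to 0.24, the lowest count of lower probes without normal liver 2 (3399 without normal liver 3) and the highest median without liver tumor 2. Slc36a1, Slc38a1 and Slc38a2 lost calls there, and the other 9 kept theirs. The log2 fold change of Slc7a5 turned to -0.024 with normexp, that of Slc38a3 to 0.054 and of Slc6a13 to 0.035 with quantile normalization, and of Slc3a1 to -0.044 without liver tumor 3 (range -0.044 to 0.39 over the arrays left out), none of them called. Slc43a3 (adjusted p = 0.0501) was called under 6 alternatives. Slc7a8 was called without liver tumor 1 (adjusted p = 0.0346). The deviations of same-numbered samples correlated at 0.07, 0.13 and 0.05, and those of samples with different numbers at -0.139 to 0.055. With 3 arrays a group these values cannot decide whether the numbers mark pairs. The methods of the paper name a paired t-test, but no pairing is stated, and the numbers were not taken as pairs. The replicate block called 2805 higher and 4216 lower probes and 9 of the 12 carriers. Of the other lists, the lower calls among sensing genes depended most on the settings, with 0 under spike-in scaling. Where calls were lost the cause was not tested.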
